A study of Mus musculus with 2 samples.

Results

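The miR-10, miR-196 and miR-615 genes of the mouse Hox clusters are Mir10a, Mir10b, Mir615, Mir196b, Mir196a-1 and Mir196a-2. They are the 6 genes that carry these symbols in the annotation, chosen by symbol and not by level, out of 1973 miRNA genes measured. The choice was made with earlier results of these data known. GENCODE M21 places 1 further miRNA gene inside these clusters, Gm44463 in Hoxd, which has no row in the tables and is not analysed here. Small RNA was sequenced from the hindbrain of B6NCrl mouse embryos of embryonic day 12.5. There were 2 libraries, given as biological replicates in the labels, from a pool of 120 embryos (replicate 1) and a pool of 88 (replicate 2), male and female together. The embryos were labelled healthy, and the labels name no allele, treatment or agent. Both pools carry the same donor label, and only the replicate numbers and the pool sizes set them apart. All samples form 1 group, so the data hold no contrast between conditions, regions or stages.

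Hox genes encode transcription factors that give cells their position along the head-to-tail axis, and they lie in their clusters in the order in which they are used along it. In the hindbrain and spinal cord, genes at the anterior end of a cluster are expressed farthest forward, and genes at the posterior end only farther back. The miR-10 genes sit beside the Hox genes of paralogue group 4, Mir615 sits within Hoxc5, and the miR-196 genes sit posterior to the Hox genes of group 9. A mature miRNA of either family represses messenger RNAs that pair with its seed (bases 2 to 8), and Hox transcripts are among the known targets of both miR-10 and miR-196.

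By seed, the 6 genes fall into 3 families, and the mature sequences are shown for that grouping. RefSeq (build GRCm38.p6) lists mature sequences for all 6 genes. They run 5′ to 3′ with the seed in capitals. For miR-10, miR-196 and miR-99 the 5′ arm is shown, and for miR-615 both arms.
miR-10a-5p: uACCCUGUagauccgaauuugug
miR-10b-5p: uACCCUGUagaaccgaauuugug
miR-615-5p: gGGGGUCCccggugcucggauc
miR-615-3p: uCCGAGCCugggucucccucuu
miR-196b-5p: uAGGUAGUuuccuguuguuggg
miR-196a-5p: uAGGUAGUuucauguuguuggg
miR-99a-5p: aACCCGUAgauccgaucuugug

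Counted from 1 at the 5′ end, the 5′ arms of miR-10a and miR-10b were identical at 22 of 23 bases and differed by U12A, outside the seed. The 5′ arms of miR-196a and miR-196b were identical at 21 of 22 bases and differed by A12C, at the same position. No other mouse miRNA in the RefSeq table has the ACCCUGU seed of miR-10, the AGGUAGU seed of miR-196 or either seed of miR-615. The miR-99/100 family is related to miR-10 by sequence, and no search for the nearest relative was made. Its member miR-99a-5p shares the 10 bases GUAGAUCCGA with miR-10a-5p, shifted by a base, and its seed ACCCGUA is a different one. With miR-10b-5p, the longest run that miR-99a-5p shares is 5 bases. The AGGUAGU run of miR-196 also occurs in the let-7 family, where it begins at base 3 of let-7a-5p and not at base 2.

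How far hairpins share sequence decides which members these tables can measure, since a read that matches several places in the genome was assigned to no gene. Mir10a and Mir10b share no identical run longer than 15 bases, and Mir615 shares at most 14 bases with any other annotated mouse hairpin. Mir196b shares at most 12 bases, with Mir196a-2. In contrast, Mir196a-1 and Mir196a-2 hold the same 22 bases, which are the whole of mature miR-196a-5p. Their hairpins, from the GENCODE M21 transcripts, are printed to show that overlap, with the shared run in capitals.
Mir196a-1 hairpin: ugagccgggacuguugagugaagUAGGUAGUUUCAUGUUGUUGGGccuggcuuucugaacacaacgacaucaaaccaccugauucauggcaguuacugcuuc
Mir196a-2 hairpin: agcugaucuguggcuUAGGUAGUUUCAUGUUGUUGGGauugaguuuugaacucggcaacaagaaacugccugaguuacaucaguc

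A read of miR-196a-5p matches both loci and can be in neither count. What the tables can hold of these 2 genes are reads that reach past the shared run or come from the 3′ arms, which differ. The 3 miR-196 counts are for this reason no measure of total miR-196a in the tissue.

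All 6 hairpins lie on the strand of the Hox genes around them. In GRCm38 coordinates, Mir10a (ENSMUSG00000065519.1) is at chr11:96317165-96317274 on the plus strand, within no other annotated transcript of that strand. It lies 1495 bases from the coding region of Hoxb4 and 12030 bases from that of Hoxb5. Mir10b (ENSMUSG00000065500.2) is at chr2:74726070-74726137 on the plus strand, 1141 bases from the coding region of Hoxd4 and in introns of Hoxd4 transcripts and of a longer Hoxd3 transcript. Mir615 (ENSMUSG00000076010.1) is at chr15:103014910-103015001 on the plus strand, in an intron of Hoxc5. Mir196b (ENSMUSG00000065443.1) is at chr6:52230081-52230165 on the minus strand, between the coding regions of Hoxa9 (3976 bases away) and Hoxa10 (2343 bases away). It lies in an exon of 2 noncoding Hoxa9 transcripts. Mir196a-1 (ENSMUSG00000065546.1) is at chr11:96265164-96265265 on the plus strand, 6276 bases posterior to the coding region of Hoxb9. It too lies within no other annotated transcript of that strand. The opposite strand was not searched for Mir10a or Mir196a-1. Mir196a-2 (ENSMUSG00000065488.1) is at chr15:102973350-102973434 on the plus strand, 2277 bases from the coding region of Hoxc10 and 8218 bases from that of Hoxc9, in an intron of a long noncoding Hoxc5 transcript.

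**Figure D1:**
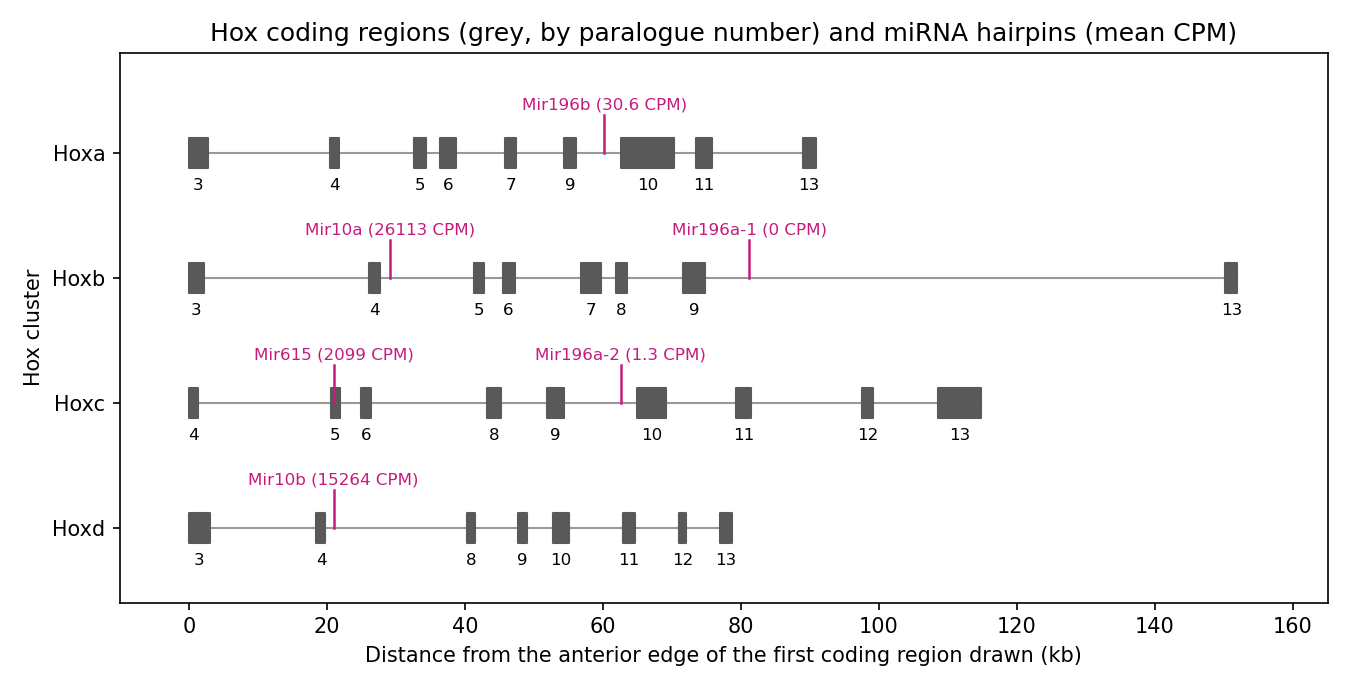
Positions of the coding regions of the Hox genes of paralogue groups 3 to 13 (grey boxes, numbered by group) and of the 6 miRNA hairpins (coloured ticks with mean CPM over 2 libraries) in the 4 mouse Hox clusters, in kb from the anterior edge of the first coding region drawn. The hairpins with the high values lie beside groups 4 and 5, and the 3 with low values lie posterior to group 9. Of these 3, Mir196a-1 and Mir196a-2 share their 5′ arm, whose reads are in neither count.

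Assigned counts summed to 2764276 for replicate 1 and 3946444 for replicate 2. Levels are in CPM, the count of a gene per 1000000 assigned counts, summed over both arms of a hairpin, with no scaling by length since a read covers about 1 mature arm. Where a gene had 0 counts, the limit was taken as 3 counts, which is 1.09 CPM in replicate 1 and 0.760 CPM in replicate 2. Intervals are exact Clopper-Pearson 95% intervals, and like these limits they cover counting error only. The neural list had 10 genes with a row under its symbols, and 8 of them reached 10 counts in both libraries. The 10 genes summed to 10796 and 9328 CPM in replicates 1 and 2. A further listed gene has a row as Mir124a-3, at 1.09 and 0.760 CPM, and is not in the sum. The lists for other cell types were present too, with summed levels, in the same order, of 22487 and 23605 CPM for mesenchyme and cartilage, 7430 and 4315 CPM for epithelium, 591 and 580 CPM for blood and 152 and 593 CPM for muscle. The muscle genes Mir1a-1 and Mir133a-1 had no counts. Reads that match several places in the genome are in no count, so 0 counts here does not show absence. For the same reason the sums do not rank the cell types. The part of these cell types in the values below was not tested. In bulk tissue fewer cells of a type and less RNA per cell cannot be told apart.

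The hairpins beside the Hox genes of group 4 were abundant, the hairpin inside Hoxc5 was 7.15-fold to 13.2-fold lower, and the hairpins posterior to group 9 were scarce by uniquely placed reads. The 2 miR-10 genes gave 94.9% of all counts of the 6 genes in replicate 1 and 95.3% in replicate 2. Mir615 gave 5.02% and 4.62%, and the 3 miR-196 genes together gave 0.0584% and 0.0890%. With at least 10 counts in both libraries, 4 of the 6 genes were detected: Mir10a, Mir10b, Mir615 and Mir196b. Over all genes, 371 of 1973 were detected by this rule. The miR-196a genes, which were not, share a 5′ arm whose reads are in neither count. The percentages of the 6 genes compare levels of different miRNAs. Ligation preferences of small RNA libraries, which differ between sequences, were not tested. With 2 libraries an exact two-sided sign-flip test cannot go below p = 0.5, so no test was made between genes and each library's value is given.

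Mir10a, which lies next to Hoxb4, was the highest of the 6 genes. It had 72830 counts in replicate 1, or 26347 CPM (26158 to 26536), and 102134 counts in replicate 2, or 25880 CPM (25724 to 26037). Its mean was 26113 ± 330 CPM (SD, n = 2), which placed it 7th of all genes in both libraries. The libraries differed by less than 2% for this gene, with a fold change of 0.982 from replicate 1 to 2 (0.973 to 0.992).

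Mir10b, which lies upstream of the coding region of Hoxd4, followed. It had 44222 counts or 15998 CPM (15850 to 16146) in replicate 1 and 57345 counts or 14531 CPM (14413 to 14649) in replicate 2. Its mean was 15264 ± 1037 CPM (SD, n = 2), and it ranked 15th and 16th. Its lower level in replicate 2 (0.908-fold, 0.897 to 0.920) was beyond counting error.

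The levels of Mir10a and Mir10b did not overlap over the libraries. Mir10a exceeded Mir10b by 1.65-fold in replicate 1 (1.63 to 1.67) and by 1.78-fold in replicate 2 (1.76 to 1.80), and the gap between the genes was larger than the difference between the libraries in either of them. Their mature 5′ arms differ at a single base, U12A, and their longest shared run is 15 bases, so a read of the full 5′ arm without errors fits only 1 of the 2 hairpins. How many mismatches the alignment allowed is not given in the sources used here, so reads with an error at that base could have moved between the genes, and the size of that exchange was not tested. Together the pair carried the ACCCUGU seed at 42345 CPM in replicate 1 and 40411 CPM in replicate 2. These sums include reads of the 3′ arms, whose seeds differ.

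**Figure D2:**
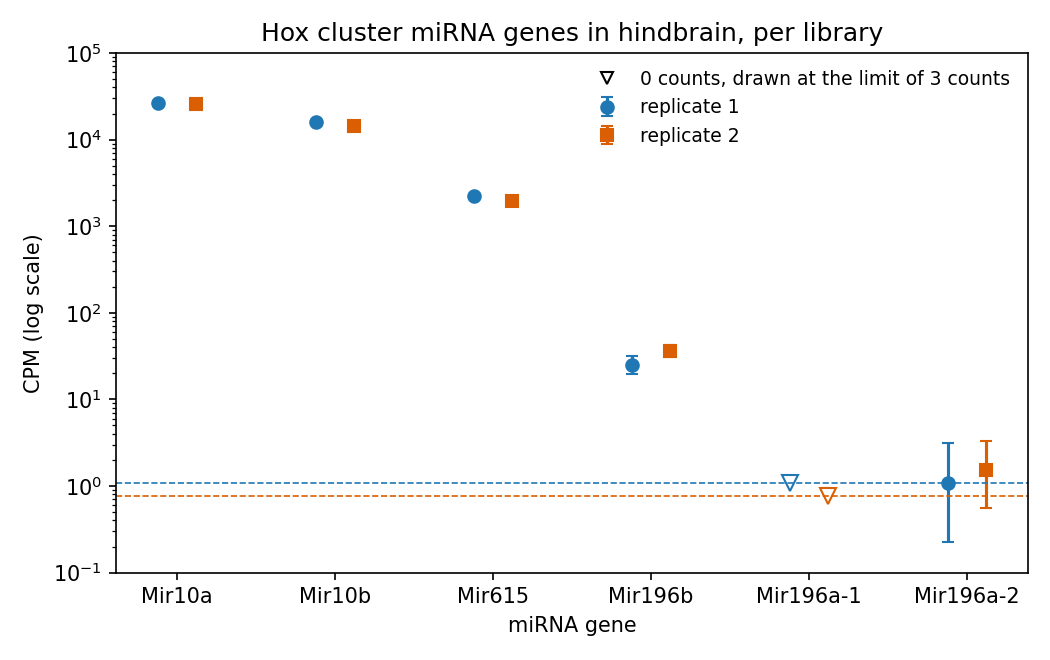
CPM (log scale) of each Hox cluster miRNA gene in replicate 1 (circles) and replicate 2 (squares), with exact 95% counting intervals and dashed lines at the level of 3 counts; open triangles mark 0 counts. Mir10a and Mir10b stand highest, at means of 26113 and 15264 CPM, Mir615 follows at 2099 CPM, Mir196b between 25.0 and 36.2 CPM, and the miR-196a genes at or near the lines.

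Mir615, which is transcribed in the same direction as its host gene Hoxc5, had an intermediate level. It had 6185 counts or 2237 CPM (2182 to 2294) in replicate 1 and 7736 counts or 1960 CPM (1917 to 2004) in replicate 2. The mean was 2099 ± 196 CPM (SD, n = 2), at rank 72 and 74 in the libraries, and the level was 0.876-fold in replicate 2 (0.847 to 0.906). Mir10b exceeded it by 7.15-fold and 7.41-fold in replicates 1 and 2, and Mir10a by 11.8-fold and 13.2-fold. The ranges of the 3 genes over the libraries did not overlap. The hairpin is rich in G and C, at 69.6%, against 40.0% for Mir10a and 39.7% for Mir10b, and the part of base composition in these counts was not tested.

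Mir196b, in the interval between Hoxa9 and Hoxa10, was detected at a low level. It had 69 counts or 25.0 CPM (19.4 to 31.6) in replicate 1 and 143 counts or 36.2 CPM (30.5 to 42.7) in replicate 2. The mean was 30.6 ± 7.97 CPM (SD, n = 2). Both values lay above the limits of 1.09 and 0.760 CPM, and none of its reads was on the opposite strand. As the hairpin lies in an exon of noncoding Hoxa9 transcripts, reads of the miRNA and short fragments of those transcripts cannot be told apart here. Mir615 exceeded Mir196b by 89.6-fold in replicate 1 (70.7 to 115) and by 54.1-fold in replicate 2 (45.8 to 64.3), so the order was the same in both libraries while the size of the gap was not. Mir10a was 1056-fold higher than Mir196b in replicate 1 and 714-fold higher in replicate 2.

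The miR-196a hairpins were under the detection minimum. Mir196a-1, posterior to Hoxb9, had 0 counts in both libraries. Mir196a-2, between Hoxc9 and Hoxc10, had 3 counts in replicate 1 (1.09 CPM, 0.224 to 3.17) and 6 in replicate 2 (1.52 CPM, 0.558 to 3.31). Since reads of the shared 5′ arm are in neither count, these values do not order the 2 genes by their output of miR-196a-5p. In Mir196b, the member of the family whose 5′ arm occurs in no other hairpin, counts were 23.0 times those of Mir196a-2 in replicate 1 (7.55 to 114) and 23.8 times in replicate 2 (10.7 to 66.0), ratios that rest on 3 and 6 counts of Mir196a-2. Reads that matched several positions made up 32.7% and 33.4% of all reads, and how many of them were miR-196a-5p is not recorded in the tables.

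Among all 371 genes detected, Mir10a stood above 98.1% and Mir10b above 95.7% of them. Mir615 stood above 80.1% and Mir196b above 26.4%. The genes closest in mean level, next above and next below in the order, were Mir99b and Mir30e for Mir10a, and Mir93 and Mir487b for Mir10b. For Mir10a neither neighbour overlapped it over the libraries: Mir99b had 30984 and 27198 CPM, and Mir30e had 25487 and 24854 CPM. Mir93, a member of the miR-106b-25 cluster, had 15315 and 18302 CPM, which overlapped the range of Mir10b, whereas Mir487b, at 11665 and 12278 CPM, did not. Mir487b shares sequence with another hairpin, so its count is uncertain. For Mir615, both Mir429 (2950 and 1362 CPM) and Mir125b-1 (2150 and 1996 CPM) overlapped its range, and Mir125b-1 also shares sequence with another hairpin. For Mir196b, Mir8114 (32.9 and 29.4 CPM) and Mir8112 (32.6 and 27.9 CPM) overlapped as well, and Mir8112 shares sequence with another hairpin. The likeness here is one of mean level in 2 libraries and no more.

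**Figure D3:**
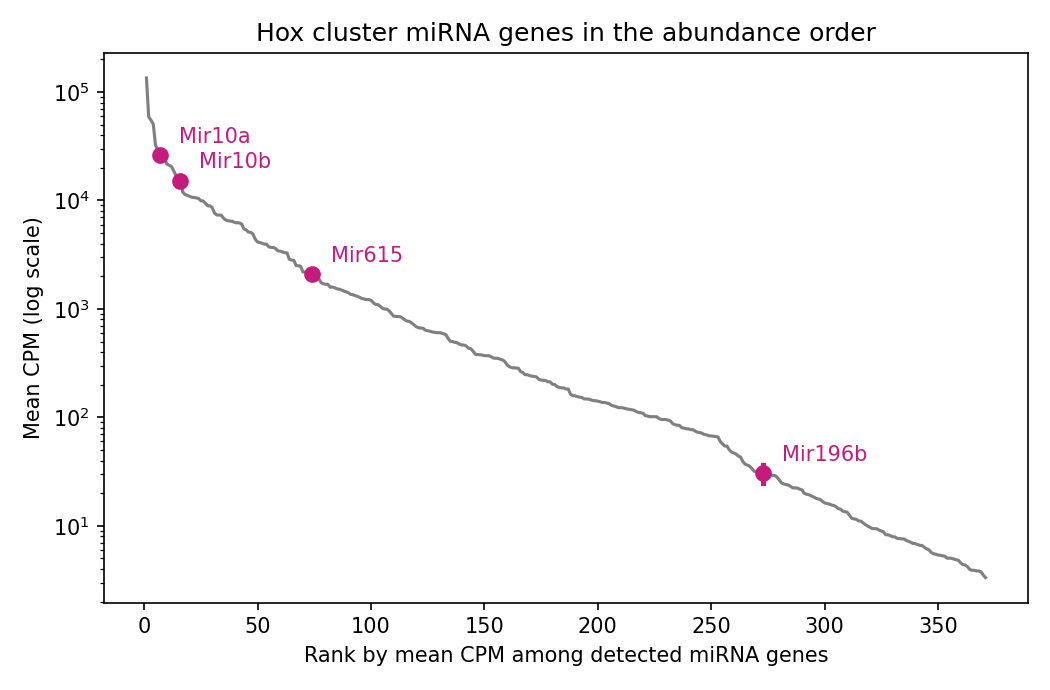
Mean CPM (log scale) of the 371 detected miRNA genes in falling order (grey line), with the 4 detected Hox cluster miRNA genes as points and a bar from the lower to the higher library. Mir10a at rank 7 and Mir10b at rank 16 are at the steep top of the curve, Mir615 is at rank 74 and Mir196b at rank 273.

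The relatives of miR-10 outside the Hox clusters were more abundant than miR-10. Mir99a, the gene with the highest count, had 130481 and 139073 CPM in replicates 1 and 2, and Mir100 had 52244 and 57778 CPM. With Mir99b the 3 genes came to 213709 and 224049 CPM, against 42345 and 40411 CPM for the miR-10 pair. By CPM, the levels in replicate 2 relative to replicate 1 were 1.07-fold for Mir99a, 1.11-fold for Mir100 and 0.878-fold for Mir99b, beside 0.982-fold for Mir10a and 0.908-fold for Mir10b. For Mir10a the direction depends on the scaling: its log2 ratio of replicate 2 to 1 was -0.03 by CPM, 0.01 with edgeR TMM factors and 0.02 with DESeq2 size factors.

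Between the pools, Mir10a had the smallest and Mir196b the largest difference among the 4 detected members. None of the 4 members with a mean of at least 10 counts differed by 1.5-fold or more between the libraries, against 15.5% of the 393 genes tested in this way (61 genes). A count of 0 of 4 does not set the members apart from that background. The median absolute log2 ratio was 0.16 over the 4 members and 0.24 over all 393 genes. The signed log2 ratios were -0.03 for Mir10a, -0.14 for Mir10b, -0.19 for Mir615 and 0.53 for Mir196b, beside a median of -0.04 over all genes. Mir196b was 1.45-fold higher in replicate 2 by CPM with nothing added to the counts (counting interval 1.08 to 1.96). That was just short of the limit of 1.5-fold, and with DESeq2 size factors the gene was 1.49-fold higher. Its absolute log2 ratio exceeded that of 81.9% of the 393 genes. Of 50 genes with a mean count within 2-fold of its own, 13 (26.0%) differed by 1.5-fold or more. The muscle list was also higher in replicate 2, at 3.91-fold in sum, nearly all of it from Mir206 (146 and 579 CPM). The summed level was 0.581-fold for the epithelium list, in which Mir205 was 1.15-fold and Mir200c 0.381-fold, and 0.864-fold for the neural list. The mesenchyme and cartilage list was 1.05-fold and the blood list 0.981-fold. Their part in the difference of Mir196b was not tested.

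**Figure D4:**
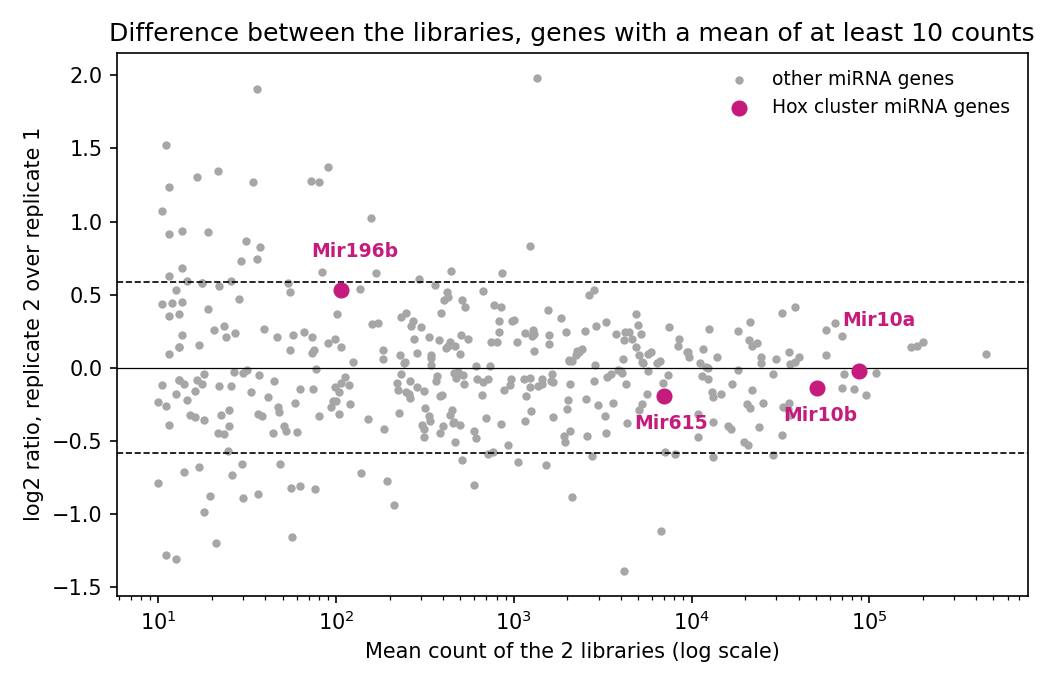
Log2 ratio of replicate 2 to replicate 1 in CPM (0.5 added to each count) against the mean count (log scale) for 393 miRNA genes, with dashed lines at 1.5-fold. The 4 Hox cluster miRNA genes (large points) lie between the dashed lines, 3 of them near 0 and Mir196b just under the upper line at 0.53.

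Hoxb8, which lies in the same cluster as Mir10a and Mir196a-1, is known as a transcript that miR-196a cleaves, and its sequence is given as context, since no messenger RNA was measured. Its longest annotated 3′ UTR in GENCODE M21 holds a stretch that pairs with 21 of the 22 bases of miR-196a-5p without a gap, and the remaining position is a G-U pair. It is printed as DNA, 5′ to 3′ on the transcript strand, with paired bases in capitals.
Hoxb8 stretch: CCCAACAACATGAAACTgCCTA

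The lower-case base falls opposite the seed of miR-196a-5p. A match is a description of letters, and no value in these libraries bears on whether it is used in hindbrain.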

How the data were processed

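The authors deposited, for each library, a table of raw read counts per miRNA gene, made from alignments to mm10 and the M4 release of GENCODE, per the text that accompanies the deposited tables. The aligner and its trimming and mismatch settings were not given in the sources used here. The tables have no header. Their layout and totals were read as counts on both strands, on the strand of the gene and on the opposite strand, and the second of these was used. The opposite strand held 2.38% and 2.35% of the gene counts in replicates 1 and 2, and none for the 6 members. Rows that name no gene, 53.5% of 5947846 reads in replicate 1 and 54.4% of 8656439 in replicate 2, were left out of totals.

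IDs were matched without version to GENCODE M21 on GRCm38, the assembly of mm10 (1894 of 1973 genes). Mir10b and Mir196a-2 have a later version in M21, so their limits in M4 may differ. RefSeq gave mature sequences for 6 of 6 members, and GENCODE gave the hairpins. Sequences were compared with annotated hairpins and transcripts, not with a genome. Gene counts merge the arms of a hairpin, and without molecular identifiers amplified copies count as separate reads.

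CPM used the assigned totals. Detection needed 10 counts or more in each library. Ratios between libraries had 0.5 added to each count, for genes whose mean count was 10 or more. This rule was checked on simulated data. Scaling alternatives used edgeR 4.0.16 and DESeq2 1.42.0 in R 4.3.3. Other steps used Python 3.11.15 and SciPy 1.17.1. The named genes are the members, their neighbours in level, their relatives by sequence, genes of the marker lists and the Hox genes nearest each member. Seed matches over the Hox transcripts, planned as well, are not reported here. Mir200c, Mir205 and the Hoxb8 stretch were chosen with their values or sequence known. The members and lists were chosen with earlier results of these data known.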

Additional observations from a re-analysis of the deposited data

How the results depend on the processing

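No paired analysis was possible because the 2 libraries form 1 group. The 6 Hox cluster miRNA genes held 4.35% ± 0.156 (SD, n = 2) of the assigned counts. That share was 5.03% without the most abundant gene in the totals, 4.73% without genes that share a 20-base run with another hairpin, and 2.00% of all reads of the library. The cause lies in the totals, since the counts of the members are the same in each. With either library alone it was 4.24% to 4.46%. The ratio of Mir10a to Mir10b was 1.65 to 1.78, that of Mir10b to Mir615 was 7.15 to 7.41 and that of Mir615 to Mir196b was 54.1 to 89.6 with either library alone, and none of these depended on the strand column. Detected members were 5 with a minimum of 1 count and 3 with a minimum of 100 counts. No member differed by 1.5-fold between the libraries under any of the 7 alternatives tried for that count. Over all genes, 18 differed by 2-fold, 276 of 735 by 1.5-fold with no filter on low counts, and 22 of 275 with a mean of at least 100 counts, against 61 of 393. Fewer genes tested or a higher limit can only lower such a count, and more genes tested can only raise it. The share of the genes tested changed as well: it was largest with no filter and smallest with a mean of at least 100 counts. Why the share changed with the filter was not tested. Depth limits Mir196b, at 69 and 143 counts, and both miR-196a genes.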
